A study of Rattus norvegicus with 64 samples.

Results

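The insulin-like growth factor (IGF) set held 9 genes: the ligands Igf1 and Igf2, the receptor Igf1r, and the binding proteins Igfbp2, Igfbp3, Igfbp4, Igfbp5, Igfbp6 and Igfbp7. The probes of the set were taken by gene name and not by any measured value, though the genes were chosen with earlier results of these data known. A gene probe belonged to the set when the RefSeq transcript given for it in the array files mapped, without its version, to one of these rat symbols. All 9 genes were found among 15715 named genes, on 11 of 30367 gene probes. Igf1 and Igfbp2 had 2 probes each and the other members had 1. A gene is given below by its brightest probe unless the second probe is named.

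Total RNA of reconstructed bladder wall was hybridized to 64 1-color Agilent rat arrays, with 8 biological replicates in each of 8 groups. All recipients were male Wistar rats whose bladder was partly removed (hemicystectomy) and then augmented with a graft of bladder acellular matrix (BAM), the bladder wall left after its cells are washed out. In the BAM groups the graft was implanted without cells. In the BAM+ASCs groups it carried adipose tissue-derived stromal cells (ASCs, named ADSCs in the sample labels) that had been grown to the third passage from retroperitoneal fat of male Wistar rats aged 10 weeks. Walls were taken 7, 30, 90 or 180 days after the operation. The age of the recipients was not given in the sources used here, and no sample of unoperated bladder was analysed here. Seeded cells and host came from the same strain, so their RNA could not be told apart on the arrays. The wall is a mixed tissue, and throughout the results fewer cells of a type and less RNA per cell cannot be told apart.

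IGF1 and IGF2 are secreted peptides that act through IGF1R, a receptor tyrosine kinase that drives growth and survival through PI3-kinase and Akt. The binding proteins hold the peptides outside the cell, where they can prolong the life of the peptide, keep it from the receptor or, after cleavage by proteases such as pappalysin, release it. In healing tissue, macrophages and fibroblasts are known sources of IGF1, and smooth muscle responds to it.

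Signals are given on a log2 scale as the processed signal of the probe minus the 75th percentile of the array, so that 1 unit is a doubling and levels of different probes cannot be set against each other. Of the gene spots of an array, 73.3% to 95.6% passed the scanner software's background test (well above background) at 7 and 30 days but 35.5% to 64.6% at 90 and 180 days, and replicate 8 of BAM at 90 days was the lowest. The median local background of a group was 43.5 to 50.8 signal units at 7 and 30 days and 107.5 to 343 at 90 and 180 days, the highest in BAM at 90 days. Each group lay on a slide of its own, and a difference between slides and one between groups cannot be told apart in any comparison below. Arrays of 7 and 30 days were scanned on a different day from those of 90 and 180 days. Every step from 30 to 90 days within a graft therefore also crosses scan days, which cannot be told apart from it. All 8 smooth muscle and all 8 fibroblast marker genes, and 7 or 8 of 8 urothelium marker genes, were well above background on every array of each group. At 90 days this held for 5 of 8 macrophage, 6 of 8 endothelium and 2 of 6 nerve marker genes in BAM. In BAM+ASCs it held for 6, 7 and 5 of them. At 180 days the numbers were 6, 6 and 3 in BAM and 7, 8 and 4 in BAM+ASCs. All 11 probes of the set were well above background on all 64 arrays, except Igf1r, on 55 arrays, and Igfbp5, on 63. The brightest Igf1 probe was saturated on 8 arrays, 4 of them BAM at 7 days, while the second Igf1 probe was saturated on 0.

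More members were called between successive days than between grafts. The share of all probes called also ran higher between days (4.14% to 44.7%) than between grafts (1.67% to 12.5%). A member was called as changed when its limma adjusted p over all 30367 probes was below 0.01 and its fold change exceeded 1.5. Between grafts, 1 of 9 members was called at 7 days, where 7.73% of all probes were called, 0 at 30 days (1.67%), 1 at 90 days (12.5%) and 1 at 180 days (2.44%). At 30 days 4 members had an unadjusted limma p below 0.05, and the 2-way analysis of variance without moderated variances called 0 as well. In BAM, 3 members were called from 7 to 30 days (8.65% of all probes), 6 from 30 to 90 days (44.7%) and 2 from 90 to 180 days (9.39%). In BAM+ASCs, the counts were 5 (8.06%), 5 (28.1%) and 3 (4.14%). From 30 to 90 days the 6 members called in BAM all rose, as 35.2% of all probes did, and of the 5 called in BAM+ASCs 3 rose, as 17.8% of all probes did, and 2 fell, as 10.3% did. The midpoint of all probes itself moved off 0. This all-probe median was -0.16, 0.11, -0.27 and 0.06 between grafts at 7, 30, 90 and 180 days, -0.06, 0.30 and -0.24 over the successive steps in BAM, and 0.27, 0.11 and 0.21 in BAM+ASCs. The medians over the 9 members for the same comparisons were -0.19, 0.34, 0.07 and 0.16, then 0.28, 0.87 and 0.10, and then 0.71, 0.42 and 0.38. Measured from the all-probe median, the called steps of Igfbp5 (0.50) and Igfbp7 (0.57) from 30 to 90 days in BAM fell below 1.5-fold. So did those of Igfbp4 (0.44) and Igfbp7 (0.56) from 7 to 30 days in BAM+ASCs. The other called steps between days stayed above 1.5-fold.

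**Figure D1:**
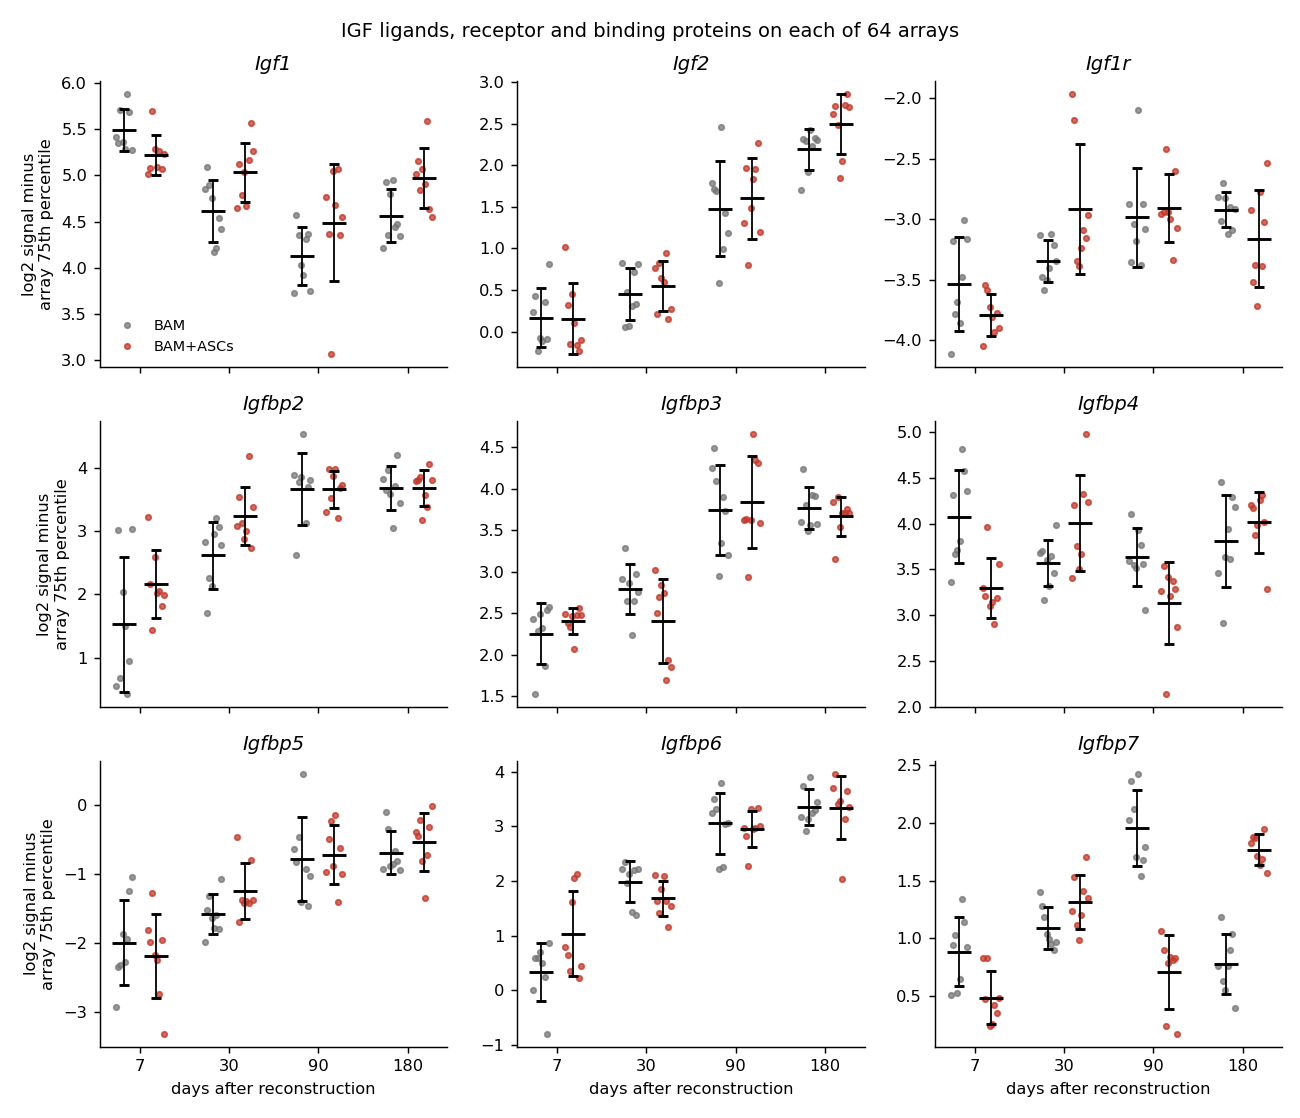
Level of each of the 9 genes on every array, as log2 signal minus the array's 75th percentile (y axis, own scale for each gene), against days after reconstruction (x axis, not to scale). Points are single arrays, gray for BAM and red for BAM+ASCs, and bars are the mean with SD of 8 arrays. Igf2, Igfbp3 and Igfbp6 climbed in both grafts, Igf1 was highest at 7 days, and Igfbp7 stood at 1.96 in BAM and 0.71 in BAM+ASCs at 90 days and at 0.78 and 1.77 at 180 days.

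Igf1, the main IGF of the adult animal, had its highest mean at 7 days in both grafts. In BAM the 8 arrays ranged from 5.27 to 5.88 with a median of 5.39 at 7 days, from 4.17 to 5.09 with a median of 4.65 at 30 days, from 3.72 to 4.57 with a median of 4.17 at 90 days, and from 4.22 to 4.95 with a median of 4.46 at 180 days. All 8 BAM arrays at 30 days lay below all 8 at 7 days, a separation seen for 3.52% of all probes in that direction. The log2 difference was -0.88 ± 0.18 (SE), with an adjusted p of 0.000141 by limma. The second probe fell by 1.18 ± 0.20 (adjusted p = 6.7e-06), also without overlap. From 30 to 90 days the brightest probe differed by -0.49 in BAM and did not pass the threshold (adjusted p = 0.0138).

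In BAM+ASCs, Igf1 ranged from 5.02 to 5.70 with a median of 5.16 at 7 days, from 4.65 to 5.57 with a median of 5.08 at 30 days, from 3.07 to 5.07 with a median of 4.61 at 90 days, and from 4.55 to 5.58 with a median of 4.96 at 180 days. The groups overlapped at each step. The step from 30 to 90 days was -0.55 ± 0.18, a 1.46-fold difference below the fold threshold with an adjusted p of 0.00858 by limma. On the second probe this step was -1.04 ± 0.20, was called (adjusted p = 1.83e-05) and showed no overlap, as for 6.23% of all probes. The probes also differed late in BAM, where the step from 90 to 180 days was 0.44 on the brightest and -0.33 on the second probe, neither of them called. At 180 days all 8 arrays lay below all 8 at 7 days in BAM on both probes, as they did for 10.8% of all probes, and in BAM+ASCs on the second probe, where the share was 8.5%. In the order of group means, from BAM at 7 days (5.49 ± 0.23, SD) down to BAM at 90 days (4.13 ± 0.31), the gap between neighbors exceeded the pooled SD of 0.35 at the last step alone, between BAM+ASCs and BAM at 90 days. Between grafts Igf1 was not called at any day, with log2 differences of -0.28, 0.42, 0.36 and 0.40 at 7, 30, 90 and 180 days. On the second probe the difference at 90 days had the opposite sign (-0.17), and the brightest probe was saturated on 2 of the 8 BAM arrays of that day.

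Igf2, the ligand of fetal growth, moved the other way. In BAM it ranged from -0.24 to 0.81 with a median of 0.08 at 7 days, from 0.05 to 0.82 with a median of 0.40 at 30 days, from 0.58 to 2.45 with a median of 1.56 at 90 days, and from 1.70 to 2.43 with a median of 2.29 at 180 days. In BAM+ASCs the same values were -0.23 to 1.01 with a median of 0.00, 0.15 to 0.94 with a median of 0.62, 0.80 to 2.27 with a median of 1.66, and 1.84 to 2.85 with a median of 2.66. In both grafts every array at 180 days lay above every array at 7 days, as did 17.5% of all probes in BAM and 36.3% in BAM+ASCs. Igf2 rose from 30 to 90 days by 1.03 ± 0.20 in BAM (limma adjusted p = 8.35e-06) and by 1.05 ± 0.20 in BAM+ASCs (adjusted p = 1.43e-05), in each case with 7 of 8 later arrays above all earlier ones. It rose again from 90 to 180 days, by 0.71 ± 0.20 in BAM (adjusted p = 0.00475) and by 0.90 ± 0.20 in BAM+ASCs (adjusted p = 0.00078), with 0 and 6 of 8 later arrays above all earlier ones. The late rise in BAM was lost without replicate 4, 6 or 8 of BAM at 90 days or replicate 5 of BAM at 180 days, with values from 0.58 to 0.68 and adjusted p from 0.0111 to 0.0224, and it was lost when the fit held the compared groups alone (adjusted p = 0.0418). In the order of group means the grafts sat side by side at each day, and the gaps over the pooled SD of 0.39 lay between the 180 and 90 day pairs and between the 90 and 30 day pairs. The difference between grafts was -0.01, 0.10, 0.12 and 0.31 at the 4 days, with 95% confidence intervals of -0.40 to 0.38, -0.29 to 0.50, -0.27 to 0.52 and -0.09 to 0.70.

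Igf1r, the receptor for both ligands, gave a dim signal. It was not well above background on 3 of 8 arrays of BAM at 90 days, on 2 of BAM at 180 days and on 4 of BAM+ASCs at 180 days. In BAM+ASCs it ranged from -4.05 to -3.54 with a median of -3.79 at 7 days and from -3.38 to -1.96 with a median of -3.12 at 30 days. These ranges did not overlap, as for 5.6% of all probes in that direction, and the rise was 0.87 ± 0.17 (limma adjusted p = 0.000117). With normexp background correction it was 0.57, below the fold threshold. In BAM the same step was 0.19 and was not called, and the difference between these steps (0.69 ± 0.24) missed the threshold (adjusted p = 0.069). Group means at 90 and 180 days lay between -3.16 and -2.91 in both grafts, and neighbors in the order of the 8 means were nowhere further apart than the pooled SD of 0.34.

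Igfbp6, a binding protein with a preference for IGF2, made the largest rise of the set over the first month in BAM. Its arrays ranged from -0.79 to 0.87 with a median of 0.55 at 7 days, from 1.38 to 2.35 with a median of 2.17 at 30 days, from 2.22 to 3.79 with a median of 3.15 at 90 days, and from 2.91 to 3.91 with a median of 3.27 at 180 days. Every BAM array at 30 days was above every one at 7 days, as for 2.59% of all probes, and the rise was 1.65 ± 0.25 (limma adjusted p = 7.39e-07). In BAM+ASCs the ranges were 0.22 to 2.14 with a median of 0.72 at 7 days, 1.16 to 2.12 with a median of 1.63 at 30 days, 2.28 to 3.33 with a median of 2.97 at 90 days, and 2.04 to 3.96 with a median of 3.44 at 180 days. There the first groups overlapped and the step of 0.65 was not called (adjusted p = 0.0431). From 30 to 90 days Igfbp6 rose by 1.06 ± 0.25 in BAM (adjusted p = 0.000179) and by 1.27 ± 0.25 in BAM+ASCs (adjusted p = 2.57e-05), the latter without overlap, as for 8.39% of all probes. The graft difference at 7 days, 0.69 ± 0.25 with 3 of 8 BAM+ASCs arrays above all BAM arrays, did not pass the threshold (adjusted p = 0.0423). Nor did the change of the graft difference from 7 to 30 days (adjusted p = 0.0678).

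Igfbp3, the main carrier of IGFs in serum, changed mainly between 30 and 90 days. In BAM it ranged from 1.53 to 2.57 with a median of 2.37 at 7 days, from 2.24 to 3.29 with a median of 2.81 at 30 days, from 2.95 to 4.49 with a median of 3.82 at 90 days, and from 3.49 to 4.23 with a median of 3.70 at 180 days. In BAM+ASCs it ranged from 2.07 to 2.56 with a median of 2.47, from 1.70 to 3.02 with a median of 2.60, from 2.94 to 4.66 with a median of 3.63, and from 3.15 to 3.90 with a median of 3.71. The rise from 30 to 90 days was 0.95 ± 0.20 in BAM (limma adjusted p = 2.69e-05) and 1.43 ± 0.20 in BAM+ASCs (adjusted p = 2.34e-08), with 6 and 7 of 8 later arrays above all earlier ones. The difference between these rises, 0.48 ± 0.28, was not called (adjusted p = 0.175). The early and late means formed separate blocks in the order of levels, with 1 gap over the pooled SD of 0.39, between BAM+ASCs at 180 days (3.67) and BAM at 30 days (2.79).

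Igfbp2, a binding protein that can also bind integrins, was the most variable member at 7 days in BAM, where it ranged from 0.43 to 3.04 with a median of 1.23. At the later days in BAM it ranged from 1.70 to 3.20, from 2.62 to 4.53 and from 3.05 to 4.19, and in BAM+ASCs from 1.44 to 3.23 at 7 days, 2.73 to 4.19 at 30 days, 3.21 to 3.98 at 90 days and 3.18 to 4.05 at 180 days. It rose from 7 to 30 days by 1.09 ± 0.28 in BAM (limma adjusted p = 0.00265) and by 1.07 ± 0.28 in BAM+ASCs (adjusted p = 0.00335), and from 30 to 90 days by 1.04 ± 0.28 in BAM (adjusted p = 0.000928). Neither of the early rises separated the groups, with 2 and 3 of 8 later arrays above all earlier ones. On the second probe the early steps were 0.76 and 0.58 and were not called (adjusted p = 0.0573 and 0.123), while its step from 30 to 90 days in BAM was 1.22 and was called. The early rise in BAM was lost without replicate 1, 3 or 6 of BAM at 7 days (0.93 to 0.97, adjusted p up to 0.012) and in the fit of the compared groups alone (adjusted p = 0.0587), and that in BAM+ASCs without replicate 3 of BAM+ASCs at 7 days or replicate 6 at 30 days (0.94 to 0.97, adjusted p up to 0.0134). From 90 days on, the 4 group means lay between 3.66 and 3.68.

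Igfbp5, a binding protein that attaches to the matrix, also rose with time. Its group means in BAM were -1.99 ± 0.62 (SD, n = 8), -1.58 ± 0.29, -0.79 ± 0.60 and -0.69 ± 0.31 at 7, 30, 90 and 180 days, and in BAM+ASCs -2.18 ± 0.61, -1.24 ± 0.40, -0.72 ± 0.42 and -0.54 ± 0.42. The called steps were 30 to 90 days in BAM (0.80 ± 0.24, limma adjusted p = 0.0028) and 7 to 30 days in BAM+ASCs (0.94 ± 0.24, adjusted p = 0.00245). The first was lost without replicate 5 of BAM at 90 days (0.62, adjusted p = 0.0164), whose value of 0.45 was the highest of that group. The second was lost without replicate 8 of BAM+ASCs at 7 days or replicate 1 at 30 days (0.78 to 0.83, adjusted p up to 0.0122), and in the fit of the compared groups alone (adjusted p = 0.0127). No gap between neighbors in the order of means exceeded the pooled SD of 0.48. The RefSeq promoter entries of Igfbp2 and Igfbp5 lie at chr9:81864561-81864860 and chr9:81914138-81914437 on opposite strands of the GRCr8 assembly.

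**Figure D2:**
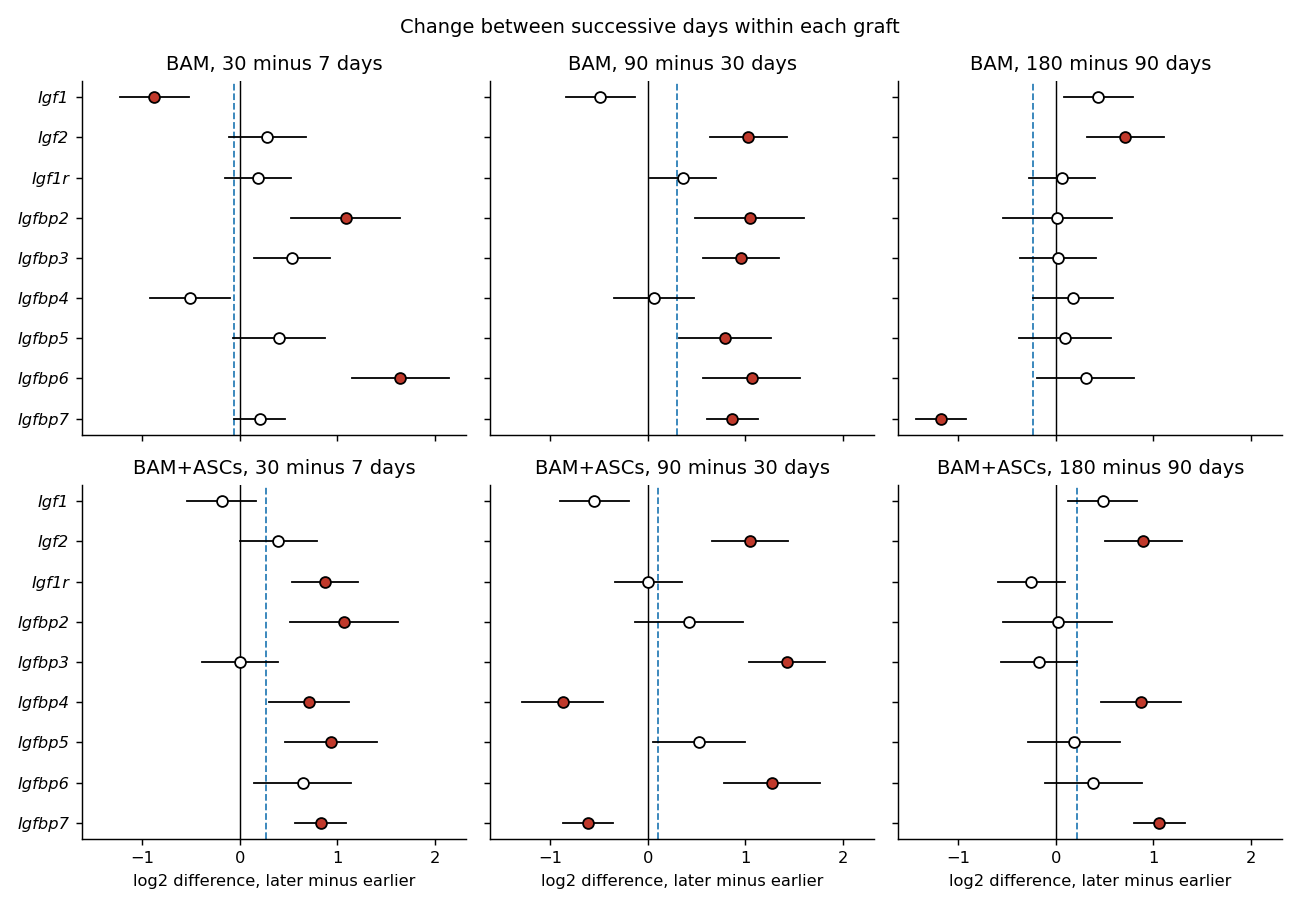
Log2 difference between successive days (x axis, later minus earlier) for the 9 genes (y axis) in BAM (upper row) and BAM+ASCs (lower row). Points are limma estimates with 95% confidence intervals, filled red where the call rule was met, and the dashed blue line is the median over all 30367 probes. From 30 to 90 days 6 genes were called in BAM, all higher, and Igf2, Igfbp3 and Igfbp6 were called higher in both grafts.

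Igfbp7, a binding protein of vascular basement membrane with low affinity for IGFs, was the member that separated the grafts. In BAM its arrays ranged from 0.51 to 1.34 with a median of 0.94 at 7 days, from 0.90 to 1.41 with a median of 1.01 at 30 days, from 1.54 to 2.42 with a median of 1.91 at 90 days, and from 0.40 to 1.18 with a median of 0.76 at 180 days. In BAM+ASCs they ranged from 0.24 to 0.83 with a median of 0.45, from 0.98 to 1.70 with a median of 1.29, from 0.17 to 1.07 with a median of 0.82, and from 1.57 to 1.95 with a median of 1.77. At 90 days every BAM+ASCs array was below every BAM array, and at 180 days every BAM+ASCs array was above every BAM array. Such separations were seen for 1.92% and 1.91% of all probes in those directions. The log2 difference was -1.25 ± 0.13 at 90 days, a 2.38-fold lower level in BAM+ASCs (limma adjusted p = 2.46e-11), and 0.99 ± 0.13 at 180 days, a 1.98-fold higher level (adjusted p = 5.3e-08). Measured from the all-probe median, these values became -0.98 and 0.93. At 7 days the difference was -0.40 (adjusted p = 0.0245) and at 30 days 0.23 (adjusted p = 0.258), neither of them called.

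The change of the Igfbp7 graft difference with time was tested directly. It was -1.48 ± 0.18 from 30 to 90 days (limma adjusted p = 1.8e-08), where 9.99% of all probes were called, and 2.24 ± 0.18 from 90 to 180 days (adjusted p = 3.09e-15), where 9.79% were. Within grafts, Igfbp7 rose in BAM from 30 to 90 days by 0.87 ± 0.13 (adjusted p = 6.44e-08) and fell by 1.18 ± 0.13 from 90 to 180 days (adjusted p = 1.38e-10). In BAM+ASCs it rose by 0.83 ± 0.13 from 7 to 30 days (adjusted p = 2.55e-06), fell by 0.61 ± 0.13 from 30 to 90 days (adjusted p = 9.63e-05) and rose by 1.06 ± 0.13 from 90 to 180 days (adjusted p = 4.4e-09). The groups did not overlap at 4 of these 5 steps, the exception being 30 to 90 days in BAM+ASCs. The shares of all probes with such a separation in the same direction were 27.5% and 1.93% for the steps in BAM and 5.6% and 2.63% for the first and last step in BAM+ASCs. That step fell below the fold threshold without replicate 2 or 7 of BAM+ASCs at 30 days or replicate 3 or 8 at 90 days, with values from -0.58 to -0.54. These comparisons share their groups, and the BAM arrays at 90 days enter the graft difference at 90 days, both changes of it and both late steps in BAM. Without replicate 8 of that group, the graft difference at 90 days was -1.27. In the order of means, BAM at 90 days (1.96) and BAM+ASCs at 180 days (1.77) were the highest, their gap below the pooled SD of 0.26, and the next mean was BAM+ASCs at 30 days (1.32).

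Igfbp4, an inhibitory binding protein cleaved by pappalysin, fell and rose again between 30 and 180 days in BAM+ASCs. Its arrays there ranged from 2.90 to 3.97 with a median of 3.20 at 7 days, from 3.40 to 4.98 with a median of 3.98 at 30 days, from 2.14 to 3.54 with a median of 3.28 at 90 days, and from 3.29 to 4.31 with a median of 4.09 at 180 days. In BAM they ranged from 3.36 to 4.81 with a median of 4.06, from 3.16 to 3.98 with a median of 3.62, from 3.05 to 4.10 with a median of 3.57, and from 2.91 to 4.46 with a median of 3.79. In BAM+ASCs it fell by 0.87 ± 0.21 from 30 to 90 days (limma adjusted p = 0.000393) and rose by 0.88 ± 0.21 from 90 to 180 days (adjusted p = 0.00179), with 6 of 8 and 7 of 8 later arrays outside the range of the earlier ones. No step in BAM was called. At 7 days it was lower in BAM+ASCs than in BAM (-0.78 ± 0.21), with 6 of 8 BAM+ASCs arrays below all BAM arrays (1.72-fold, adjusted p = 0.00465).

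The early Igfbp4 values lay close to the threshold. The difference at 7 days was not called with quantile normalization, with normexp, or when arrays were scaled to their detected probes, in the fit of the compared groups alone, or without replicate 4 or 6 of BAM+ASCs or replicate 6, 7 or 8 of BAM at 7 days (-0.75 to -0.67, adjusted p from 0.0106 to 0.0208). The rise from 7 to 30 days in BAM+ASCs was 0.71 ± 0.21 (limma adjusted p = 0.00842) and was lost in 10 of 16 fits that left out 1 array (0.58 to 0.71, adjusted p up to 0.0274), those without replicate 1, 2, 4, 5, 6 or 7 at 7 days or replicate 2, 6, 7 or 8 at 30 days. The change of the graft difference from 7 to 30 days was 1.22 ± 0.29 (adjusted p = 0.00952), where 0.985% of all probes were called, and 22 of 32 such fits lost it (1.08 to 1.26, adjusted p up to 0.0243). Both were also lost with quantile normalization, with normexp, when arrays were scaled to their detected probes, with the series matrix values and in the fit of the compared groups alone, with log2 values for Igfbp4 from 0.65 to 0.71 and from 1.16 to 1.22. In the series matrix the values of replicates 2, 3 and 4 of BAM+ASCs at 7 days differed from the scanner signals.

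**Figure D3:**
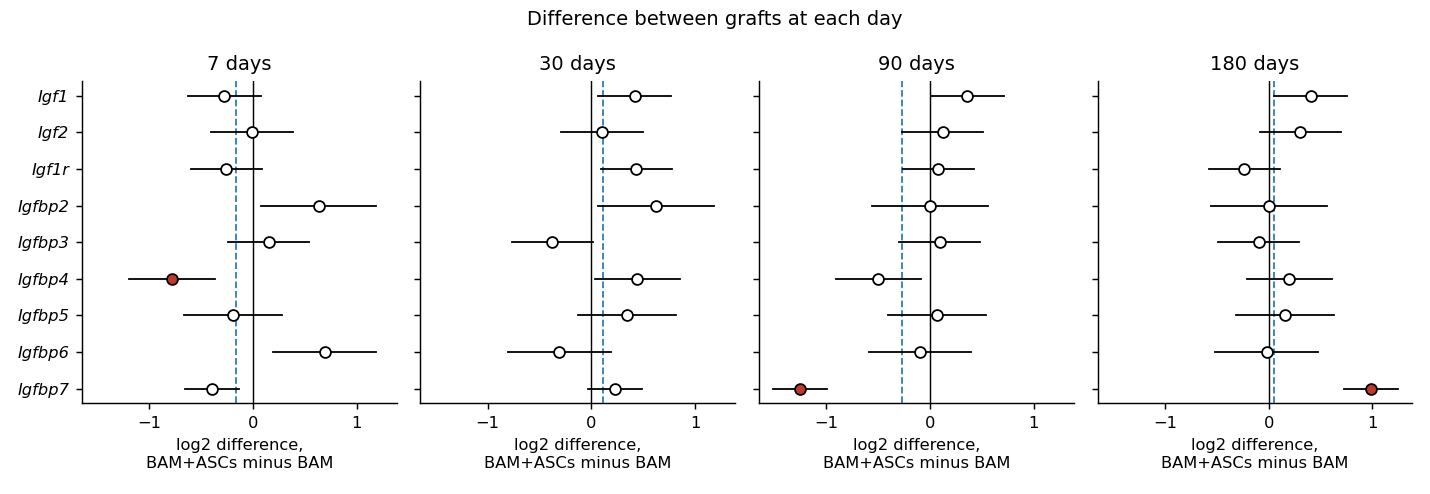
Log2 difference BAM+ASCs minus BAM (x axis) for the 9 genes (y axis) at 7, 30, 90 and 180 days. Points are limma estimates with 95% confidence intervals, filled red where called, and the dashed blue line is the median over all 30367 probes. Igfbp4 at 7 days (-0.78) and Igfbp7 at 90 days (-1.25) and 180 days (0.99) are filled.

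The promoters of Igfbp7, Igfbp4 and Igf1 are shown because Igfbp4 deviated with Igfbp7 and with Igf1 from array to array, as given further down. The r of Igf1 with Igfbp7 was lower (0.43). Igfbp7 and Igfbp4 were also the members called between grafts. Each is the RefSeq entry of 300 bases around the listed start on assembly GRCr8, 5′ to 3′, and capitals mark the motifs found. Searched on both strands were the TATA box (TATAAA), the GC box (GGGCGG) and the E box (CACGTG).
Igfbp7 promoter, chr14:31091486-31091785, plus strand: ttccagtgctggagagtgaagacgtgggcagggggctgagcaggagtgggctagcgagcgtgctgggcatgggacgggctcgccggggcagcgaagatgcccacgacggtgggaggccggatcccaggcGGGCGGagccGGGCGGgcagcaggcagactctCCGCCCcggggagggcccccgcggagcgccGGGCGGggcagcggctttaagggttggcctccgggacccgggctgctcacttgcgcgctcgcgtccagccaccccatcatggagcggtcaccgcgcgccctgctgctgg
Igfbp4 promoter, chr10:84491221-84491520, plus strand: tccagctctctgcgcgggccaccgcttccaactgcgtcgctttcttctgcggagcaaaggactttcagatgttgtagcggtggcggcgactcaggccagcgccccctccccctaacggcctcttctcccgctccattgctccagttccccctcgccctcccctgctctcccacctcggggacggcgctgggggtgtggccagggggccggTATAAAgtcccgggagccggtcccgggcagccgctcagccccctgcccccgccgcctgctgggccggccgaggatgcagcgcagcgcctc
Igf1 promoter, chr7:24172282-24172581, plus strand: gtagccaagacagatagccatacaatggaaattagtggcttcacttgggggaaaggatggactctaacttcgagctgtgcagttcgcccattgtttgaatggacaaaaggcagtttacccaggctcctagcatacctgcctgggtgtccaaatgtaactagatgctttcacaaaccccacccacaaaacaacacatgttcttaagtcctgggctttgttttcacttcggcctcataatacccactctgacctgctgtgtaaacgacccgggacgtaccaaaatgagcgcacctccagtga
Igfbp7 held 4 GC boxes, all before the start, and Igfbp4 held 1 TATA box. Igf1 held none of the 3 motifs in this window. Over all 33469 promoter entries, 14.2% held a TATA box, 33.1% a GC box and 6.42% an E box. Of the other members, Igf1r and Igfbp2 held 1 GC box and 1 E box each, Igf2 held 1 GC box in each of its 2 entries, and Igfbp3, Igfbp5 and Igfbp6 held none. The GC content was 74.3% for Igfbp7, 71.0% for Igfbp4 and 48.3% for Igf1, against a median of 51.7% over all entries. A match is a description of letters and not of binding.

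The wider pathway list held 57 genes besides the members, of which 49 were on the array. Between grafts, 4 of 49 were called lower at 7 days, 0 at 30 days, 1 higher and 4 lower at 90 days, and 0 at 180 days, by limma, and 14 at 30 days and 7 at 180 days had an unadjusted p below 0.05. Over all probes, 5.62% were called lower at 7 days, and 3.88% higher and 8.6% lower at 90 days, so that the share of the list called lower lay near that of all probes at both days. At 7 days 3 of the 4 belonged to the growth hormone axis, which drives Igf1 in liver. These were Ghrh, the releasing hormone (-1.73 ± 0.23, adjusted p = 5.41e-08), Socs3 (-1.24 ± 0.27, adjusted p = 0.000664) and Socs2 (-0.93 ± 0.21, adjusted p = 0.00124), the last 2 of them feedback inhibitors of cytokine signaling. Ghrh and Socs2 were dim, with means in BAM+ASCs and BAM of -5.20 and -3.47 for Ghrh and -5.53 and -4.60 for Socs2. Socs2 was well above background on 7 of 8 BAM+ASCs arrays. The pathway genes were not followed through the processing alternatives. The other one, named after its value was seen, was the adaptor Shc1 (-0.66). At 90 days C1s, a complement protease that can cleave binding proteins, was lower in BAM+ASCs (-0.61 ± 0.15, limma adjusted p = 0.00206). Socs2 was called higher there (0.91 ± 0.21, limma adjusted p = 0.000955). It was well above background on 8 of 8 BAM+ASCs arrays and 0 of 8 BAM arrays, so the size of its difference is uncertain. The median local background of these groups was 107.5 and 343. The other 3 called lower at 90 days, Ghrh, Igfals and Insrr, were well above background on at most 3 of 8 arrays of either group.

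Between days, 0 of 49 pathway genes rose and 3 fell from 7 to 30 days in BAM, 7 rose and 10 fell from 30 to 90 days, and 3 rose and 0 fell from 90 to 180 days. In BAM+ASCs 2 rose and 1 fell, 5 rose and 6 fell, and 2 rose and 0 fell. Over all probes the shares that rose and fell were 4.44% and 4.21%, 35.2% and 9.49%, and 5.21% and 4.17% in BAM, and 6.67% and 1.4%, 17.8% and 10.3%, and 3.52% and 0.616% in BAM+ASCs. H19, the imprinted noncoding neighbor of Igf2, fell by 1.93 ± 0.32 from 7 to 30 days in BAM (limma adjusted p = 7.02e-06) and stood at -0.71 for that step in BAM+ASCs, where it was not called (adjusted p = 0.0901). Mmp7, a metalloproteinase that can cleave binding proteins, fell from 30 to 90 days by 2.48 ± 0.74 in BAM (adjusted p = 0.00317) and by 4.26 ± 0.74 in BAM+ASCs (adjusted p = 4.29e-06). Jak2, the kinase of the growth hormone receptor, fell from 7 to 30 days in both grafts (by 0.73 and 0.66). Of the genes after the receptor, Pik3r1, the regulatory subunit of PI3-kinase, rose by 1.1 ± 0.21 from 30 to 90 days in BAM+ASCs (adjusted p = 2.36e-05). Igfbp1, the liver binding protein, rose by 0.61 ± 0.12 from 90 to 180 days in BAM+ASCs (adjusted p = 0.000189). The median over the 49 genes ranged from -0.16 to 0.07 over these 10 comparisons.

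Within groups, the members did not deviate as one block. After each group mean was subtracted, the 36 pairs of members had a median Pearson r of 0.14 over 64 arrays, with 2 pairs above 0.5. These were Igfbp4 with Igfbp7 (0.63) and Igf1 with Igfbp4 (0.58), while Igf1 and Igfbp2 ran in opposite directions (-0.39). The arrays share scaling and slides, and these values are descriptions. Among probes well above background on all arrays, the genes most like Igfbp6 were Tnxa-ps1 (0.85), a tenascin pseudogene whose probe may also read its parent gene, Olfml1 (0.84) and Nbl1 (0.82). Those most like Igfbp7 were Cdh13 (0.70), Tbcb (0.69) and Lamc1 (0.66), the last a laminin chain. Those most like Igfbp4 were Fscn1 (0.74), Col18a1 (0.72) and Prr7 (0.71), those most like Igf1 were Spon1 (0.73), Srpx2 (0.72) and Vegfc (0.71), and those most like Igf2 were Cytl1 (0.70), Jam2 (0.63) and Camk2n1 (0.61). Igfbp2 was most like the muscle genes Cnn1 (0.72), Smtnl2 (0.68) and Tnnc2 (0.67). Igfbp3 had the loosest company, with Cpxm1 (0.56), Plxdc2 (0.53) and Hexa (0.52), Igfbp5 went with Adcy5 (0.66), Ptov1 (0.63) and Fez1 (0.63), and Igf1r with Rxylt1 (0.67), Kif5b (0.66) and St13 (0.64).

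**Figure D4:**
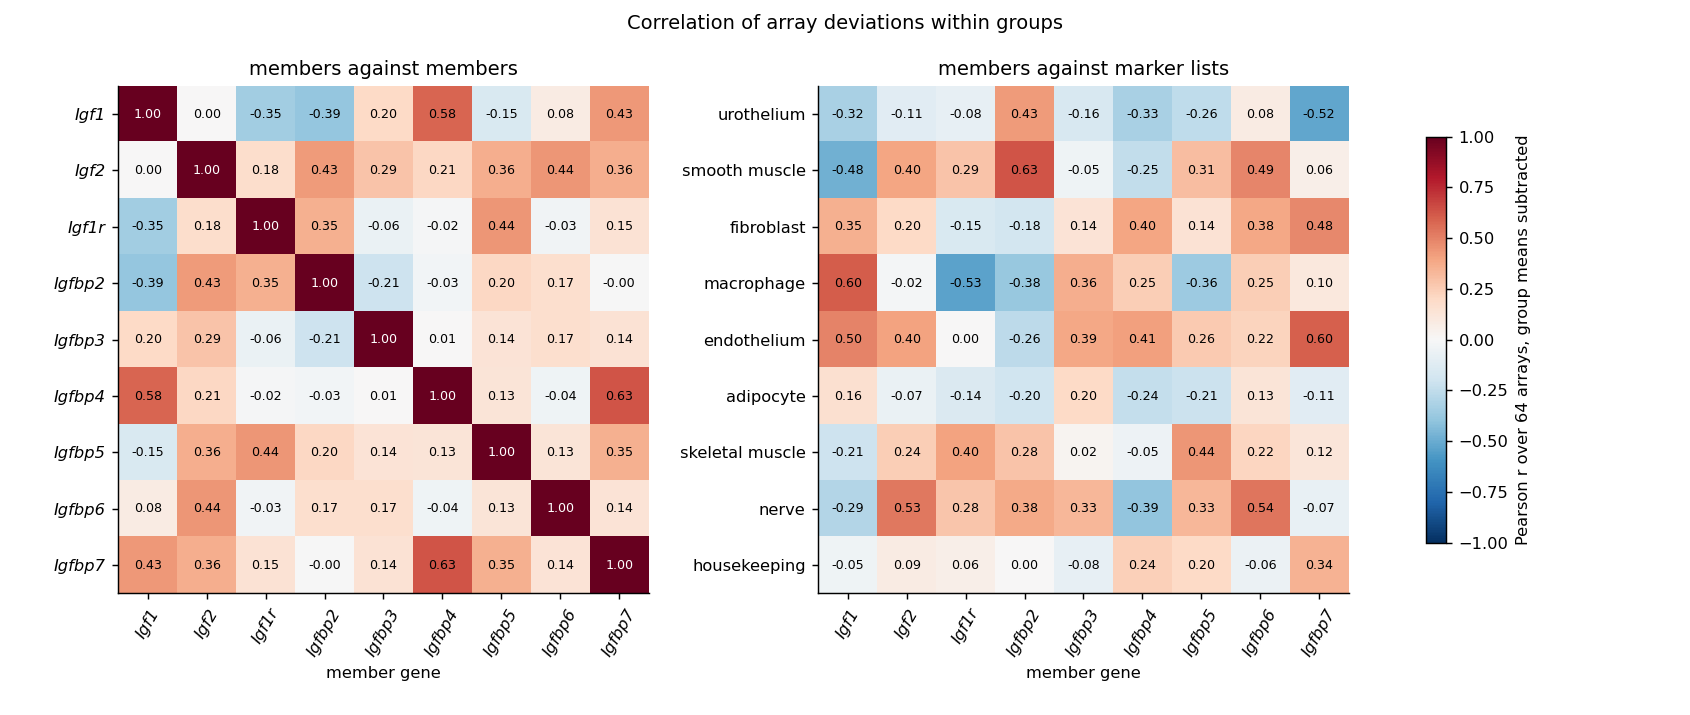
Pearson correlation over 64 arrays after group means were subtracted, among the 9 genes (left) and between the 9 genes (columns) and the mean level of 9 marker lists (rows, right). The color scale runs from -1 (blue) to 1 (red), and the highest pair of different members is Igfbp4 with Igfbp7 (0.63). Igfbp2 follows smooth muscle (0.63), Igf1 the macrophage list (0.60) and Igfbp7 the endothelium list (0.60).

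Markers of several cell types moved with the members, and their part in the results was not tested. The level of a marker list averages the same log2 signal across its genes. In BAM the median level of the macrophage list (8 genes) was 1.64, 1.51, 0.42 and -0.28 at 7, 30, 90 and 180 days, and in BAM+ASCs 1.43, 0.72, 0.18 and -0.08. Its r with Igf1 within groups was 0.60, but the group levels matched in part. From 30 to 90 days the list and Igf1 were both lower in both grafts. From 7 to 30 days in BAM, where Igf1 was called lower (-0.88), 0 of the 8 macrophage genes were called. From 90 to 180 days in BAM the list median fell, while the brightest Igf1 probe differed by 0.44, not called. At 30 days the list median was lower in BAM+ASCs than in BAM, and Igf1 was higher (0.42, not called). The smooth muscle list (8 genes) had medians of 1.54, 2.57, 3.23 and 3.85 in BAM and 1.98, 2.61, 3.69 and 3.60 in BAM+ASCs, in the direction of Igf2, Igfbp2, Igfbp5 and Igfbp6, and within groups it ran with Igfbp2 (0.63) and Igfbp6 (0.49). In BAM at 7 days, where Igfbp2 was most variable, the smooth muscle level ranged from 0.32 to 2.95 and the urothelium level (8 genes) from -1.96 to 2.27. The nerve list (6 genes) had an r of 0.54 with Igfbp6 and 0.53 with Igf2. For Igfbp7, the endothelium list (8 genes) had medians of -0.44 in BAM and -0.53 in BAM+ASCs at 90 days and of -0.46 and -0.05 at 180 days, ranging from -0.81 to -0.04 and from -1.40 to 0.01 at 90 days and from -0.66 to -0.22 and from -0.37 to 0.37 at 180 days. These endothelium levels overlapped between grafts at both days, and within groups their r with Igfbp7 was 0.60. Their part in the Igfbp7 differences was not tested. Of the 8 endothelium genes 1 was called lower at 90 days and 0 at 180 days, where 6 had an unadjusted limma p below 0.05. Between days the list and Igfbp7 matched in part. From 7 to 30 days 5 of 8 were called lower in BAM and 2 of 8 in BAM+ASCs (4.21% and 1.4% of all probes). Igfbp7 then differed by 0.21 in BAM, not called, and rose by 0.83 in BAM+ASCs. Like Igfbp7, 3 of 8 were called higher from 30 to 90 days in BAM (35.2%) and from 90 to 180 days in BAM+ASCs (3.52%). The urothelium list, with an r of -0.52 with Igfbp7, ranged at 90 days from 0.77 to 3.34 in BAM and from 3.11 to 4.64 in BAM+ASCs, and 0 of its 8 genes were called there, 4 of them with an unadjusted limma p below 0.05. Called higher in BAM+ASCs at 90 days were 3 of 8 smooth muscle, 3 of 8 fibroblast and 2 of 8 housekeeping genes, where 3.88% of all probes were. The fibroblast list had an r of 0.48 with Igfbp7 within groups, while at 90 days it ranged from 2.42 to 3.28 in BAM and from 2.78 to 3.36 in BAM+ASCs, opposite in direction to Igfbp7. At 7 days, where Igfbp4 was lower in BAM+ASCs, 5 of 8 urothelium genes were called higher, where 2.11% of all probes were, and 2 of 8 endothelium genes lower, where 5.62% were. The r with Igfbp4 was 0.41 for endothelium, 0.40 for fibroblast, -0.39 for nerve and -0.33 for urothelium. The level of 8 housekeeping genes had medians of 3.36, 3.35, 2.83 and 2.96 in BAM and 3.17, 3.20, 3.09 and 3.01 in BAM+ASCs. Adipocyte markers (6 genes) ranged over groups from medians of -1.65 to -0.33, with Lep not well above background on any array of 4 groups, and their r with the members lay between -0.24 and 0.20.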

How the data were processed

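Per the labels, total RNA of the reconstructed wall was amplified, labeled with Cy3 and hybridized to 1-color rat arrays. The deposited files are Agilent Feature Extraction output, in which the authors' processed signal is a background-corrected intensity for each of 62976 spots. A deposited series matrix holds the authors' processed signals. After log2 its columns equaled the unscaled scanner values within 0.01 for 60 of 64 arrays, and it served only as an alternative. The exceptions were replicates 2, 3 and 4 of BAM+ASCs at 7 days, whose values differed, and replicate 1 of BAM at 180 days, where 26650 spots had no usable value. Processing steps of the study were otherwise taken from its methods, which called genes by a 2-way analysis of variance.

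Here the log2 of the processed intensity minus the 75th percentile over the 58717 gene spots of the array was used, outlier spots were left out, and spots of a probe were averaged. Well above background means at least 0.5 of a probe's spots. Groups came from the labels, and each was 8 arrays. A group-means model on all 64 arrays was fitted with limma 3.58.1 in R 4.3.3 (lmFit and eBayes), and p-values were adjusted by Benjamini-Hochberg over 30367 probes. A call needed an adjusted p below 0.01 and over 1.5-fold. The fit was tested beforehand on simulated data with independent noise and no slide differences, so that test cannot speak to differences between slides. The number of arrays limits the precision, and p-values measure the spread between replicates. RefSeq symbols were found for 18758 probes of 22372 with a RefSeq identifier. Promoters came from RefSeq entries on GRCr8.

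All members were named by their brightest probe, together with a second probe where it differed. For each member the 3 most correlated genes were named, and for each pathway comparison up to 3 called genes of the largest change that were well above background on all arrays of a group. The members and lists were chosen with earlier results of these data known. Alternatives were normexp with an offset of 50, quantile normalization, a percentile over detected probes, the series matrix, dim probes left out, the compared groups alone, a replicate block, an unmoderated 2-way analysis of variance, a 2-fold threshold, an adjusted p below 0.05, outlier spots kept, the mean of all probes of a gene, and each array left out.

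One result among the called pathway genes is not reported here.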

Additional observations from a re-analysis of the deposited data

Results flagged for a closer look

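A sample was singled out where its gap to the nearest of the other 7 arrays, over the group's range, exceeded Dixon's critical value, which happened in 8 of 88 groups of values. Chance alone does this in about 1 of 20 groups. Igf1 was high in replicate 3 of BAM+ASCs at 7 days (5.70, second probe 4.81) and low in replicate 3 of BAM+ASCs at 90 days (3.07, second probe 1.28). Igf1r was high in replicate 5 of BAM at 90 days (-2.10). Igfbp3 was low in replicate 5 of BAM+ASCs at 7 days (2.07), Igfbp4 in replicate 8 of BAM+ASCs at 180 days (3.29), and Igfbp6 in replicate 5 of BAM+ASCs at 180 days (2.04).

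The graft difference changed between days, by the test of that change, for Igfbp4 from 7 to 30 days (1.22) and for Igfbp7 from 30 to 90 days (-1.48) and from 90 to 180 days (2.24).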

How the results depend on the processing

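Over 12 processing alternatives, 36 of 360 repeats of the 30 called member values were lost, as were 53 of 528 with 1 array left out. Slide and group cannot be told apart by any of the alternatives, nor can scan day and a step from 30 to 90 days within a graft. Igf1r was not well above background on some arrays of 3 late groups. Igfbp7 at 90 days was called in every alternative run.

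The number of called members at 7 days between grafts was 1 and became 0 with a 2-fold threshold, scaling to detected probes, normexp, quantile normalization or the compared groups alone, and 2 with an adjusted p below 0.05. With the 2-fold threshold it became 0 between grafts at 180 days, 3 and 1 in BAM from 30 to 90 and from 90 to 180 days, and 1, 3 and 1 over the steps in BAM+ASCs. In the fit of the compared groups alone it was 1 in BAM from 90 to 180 days. In BAM+ASCs from 7 to 30 days it was 3 with that fit and with normexp. For the change of the graft difference from 7 to 30 days it was 0 with scaling to detected probes, normexp, the compared groups alone, quantile normalization, the series matrix or the analysis of variance, and 2 with an adjusted p below 0.05. From 30 to 90 days it was 2 with scaling to detected probes and with an adjusted p below 0.05. Leaving out 1 array gave 0 to 1 between grafts at 7 days, 2 to 3, 5 to 6 and 1 to 2 over the steps in BAM, 3 to 5 and 4 to 6 over the first 2 steps in BAM+ASCs, and 0 to 1 and 1 to 2 for the first 2 changes of the graft difference. The lowest count in BAM+ASCs from 7 to 30 days came without replicate 6 of 30 days, and the count of 2 for the change from 30 to 90 days without replicate 4 of BAM+ASCs at 30 days. With the replicate block every count stayed at its value (6 in BAM from 30 to 90 days, for example) and no call changed. Same-numbered arrays had deviations with r from -0.31 to 0.62, and the numbers do not pair the arrays.

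Among the differences between grafts and between days, values that changed sign were uncalled and near 0. Of the changes of the graft difference, the called ones of Igfbp4 and Igfbp7 were followed, and none changed sign. With normexp these were Igfbp4 in BAM from 30 to 90 days (-0.01), Igf1r in BAM from 7 to 30 days (-0.03), Igfbp3 in BAM from 90 to 180 days (-0.02), and Igfbp2 in BAM+ASCs from 90 to 180 days (-0.02) and between grafts at 90 (0.04) and 180 days (0.00). With quantile normalization they were Igfbp2 (-0.02) and Igfbp3 (-0.03) in BAM from 90 to 180 days, Igfbp3 in BAM+ASCs from 7 to 30 days (-0.06), and Igfbp2 in BAM+ASCs from 90 to 180 days (-0.08) and between grafts at 90 (0.02) and 180 days (-0.04). With scaling to detected probes they were Igfbp2 in BAM (0.00) and BAM+ASCs (-0.02) from 90 to 180 days and between grafts at 90 (0.01) and 180 days (0.00), Igfbp3 in BAM+ASCs from 7 to 30 days (-0.03), and Igf2 between grafts at 7 days (0.08). With the mean of all probes they were Igfbp2 in BAM (-0.03) and BAM+ASCs (-0.07) from 90 to 180 days and between grafts at 180 days (-0.08). With 1 array left out, the values ran from 0.00 to 0.15 for Igfbp4 in BAM from 30 to 90 days, and in BAM from 90 to 180 days from -0.13 to 0.14 for Igfbp2, -0.10 to 0.12 for Igfbp3 and 0.00 to 0.27 for Igfbp5. In BAM+ASCs they ran from -0.08 to 0.10 for Igfbp3 from 7 to 30 days, -0.06 to 0.14 for Igf1r from 30 to 90 days and -0.05 to 0.09 for Igfbp2 from 90 to 180 days. Between grafts they ran from -0.13 to 0.08 for Igf2 at 7 days, -0.01 to 0.26 for Igf2, -0.15 to 0.12 for Igfbp2, -0.02 to 0.22 for Igfbp3, -0.03 to 0.24 for Igfbp5 and -0.22 to 0.01 for Igfbp6 at 90 days, and -0.09 to 0.08 for Igfbp2 and -0.11 to 0.17 for Igfbp6 at 180 days. The cause of these changes was not tested.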
